A study of Mus musculus with 28 samples.

Results

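C2C12 myotubes and MLg lung fibroblasts were cultured either by themselves or with EO771 breast cancer cells placed directly on them, and the genes described here are those in which the response to EO771 could be compared between the 2 host lines. The quantity of interest was the difference of responses, that is the log2 change of C2C12 with EO771 over C2C12 alone minus the log2 change of MLg with EO771 over MLg alone. It was estimated over 16 host libraries, 4 in each of the 4 groups, out of 28 libraries in the study. Genes were kept when their mean level in EO771 alone was at most 4 times that in each host line alone, so that genes much more abundant in the cancer cells were left out. Of 18647 genes with enough counts to be tested, 15505 met this rule and are called members below, and 3142 did not. Levels are given as CPM, counts per M total counts of a library.

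All 3 lines were mouse lines labelled wild type. C2C12 is a muscle line labelled as myotubes, MLg is a lung fibroblast line, and EO771 is a breast cancer line. The labels do not say how host and cancer cells were parted before RNA extraction. They also do not say that replicate libraries came from separate cultures, so the p-values rest on a spread between libraries that may be technical only. Replicates carry the labels' own R number and running number, such as R3-1.

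Type I interferons bind a receptor on the cell surface and act through a complex that includes STAT2 and IRF9 and binds a short element in the promoters of antiviral genes. Fibroblasts and muscle cells both carry this pathway. Notch receptors act on contact between neighbouring cells and switch on Hes and Hey repressors, and cholesterol synthesis is set as a unit by the SREBP2 transcription factor.

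Total counts ran from 33.8 M to 96.5 M across the host libraries. RNA of EO771 was present in every co-cultured host library: transcripts specific to EO771 stood at 4.48% ± 1.11 (SD, n = 4, 26 genes) of their EO771 level in C2C12 with EO771 and at 8.59% ± 3.08 (SD, n = 4, 24 genes) in MLg with EO771, with the highest value, 13.0%, in MLg with EO771 R5-1. The summed level of 8 myotube markers was 309 to 3577 CPM in C2C12 alone and 564 to 2357 CPM in C2C12 with EO771, against 3.85 to 11.8 CPM over the MLg libraries. All 3 C2C12 libraries of R3 lay at 309 to 564 CPM, below the other 5 (1605 to 3577 CPM). They are R3-1 and R3-2 of C2C12 alone and R3-1 of C2C12 with EO771, so they are spread unevenly over the C2C12 response. Results that rest on the C2C12 libraries of R3 are given with and without them. Without these 3 libraries 58 members were higher and 63 lower in the difference of responses defined above, with 41 of the 73 calls described below among them. Of the genes named below, Ifi44, Stat2, Hmgcs1, Osmr, Ranbp3l, Jun, Mt2, Rarres2 and Klf10 lost their call in the difference there. In 2 libraries, MLg with EO771 R5-1 and R6-1, every count was even, as would arise if each read pair was counted as 2, which was not tested. Halved, their totals are 16.9 M and 28.8 M, and the difference of responses then had 45 members higher and 25 lower. The 7 fibroblast markers, carried by collagens such as Col3a1, summed higher in C2C12 than in MLg, so their sum did not follow the labels. It was 21790 to 24060 CPM in C2C12 alone and 25200 to 28070 in C2C12 with EO771. In MLg it was 12740 to 17140 CPM alone and 12340 to 15250 with EO771. Col3a1 and Pdgfrb had higher means in C2C12 alone (19180 and 1180 CPM) than in MLg alone (5066 and 480). Pdgfra, Col1a1 and Dcn were higher in MLg alone (1492, 5978 and 1911 CPM against 109, 881 and 1656). Thy1 was at or near 0 in all 4 groups (at most 0.135 CPM) and Twist2 was at 2.41 to 4.44 CPM in C2C12 and 6.98 to 15.4 CPM in MLg. Macrophage and endothelial markers summed to at most 2.78 CPM, and Adgre1 and C1qa were at 0 in all 4 groups. In bulk RNA, fewer cells of a type and less RNA per cell cannot be told apart.

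A small set of genes responded differently in the 2 host lines, led by interferon genes and Csgalnact1 on the C2C12 side and by Hes1, Dio2 and Aldh3a1 on the MLg side. In the difference of responses, 47 members were higher in C2C12 and 26 were lower (edgeR quasi-likelihood test, adjusted p under 0.05), which is 0.471% of members, against 1.84% of all genes tested. The larger share over all genes came from the genes outside the rule, of which 270 of 3142 were called. The C2C12 response itself had 164 members higher and 74 lower (4.4% called over all genes), and the MLg response had 236 higher and 337 lower (7.16% over all genes). The median difference over members was 0.02, with quartiles that span 0.

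In most of the 73 called members the 2 responses had opposite signs, which choosing members by a large difference favours in itself. The signs below include those of responses that were not called, and the share over all members is not given. Of the 47 with a positive difference, 35 had a C2C12 response above 0 and an MLg response below 0, and 11 were above 0 in both lines. Of the 26 with a negative difference, 23 were below 0 in C2C12 and above 0 in MLg. In only 1 member, Csgalnact1, was a rise in C2C12 called together with a fall in MLg, and in only 1, Dio2, a fall in C2C12 with a rise in MLg. The called members also tended to start from unequal levels. C2C12 alone was below MLg alone in 39 of the 47 (83.0%) and in 3 of the 26 (11.5%), against 57.2% of all members. The libraries grown alone enter both the starting level and the response, so the starting level and the difference share their error.

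**Figure D1:**
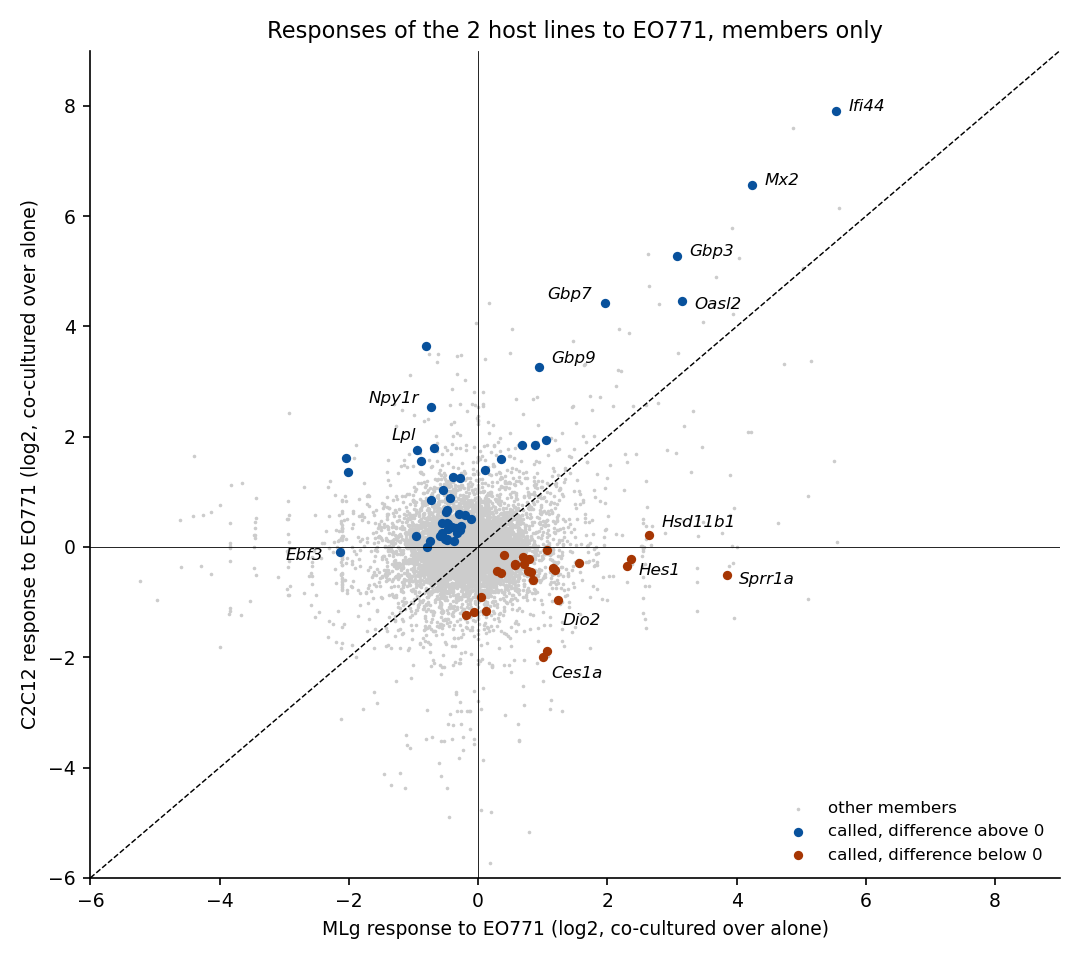
Each point is a member, with its MLg response on the x axis and its C2C12 response on the y axis (log2 of co-cultured over alone), and the dashed line marks equal responses. The 47 blue points above the line and the 26 brown points below it are the members with a called difference, and the interferon genes form the arm at the upper right, where both responses are large.

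With RLE size factors in place of TMM the called members split into 39 higher and 33 lower, and with library totals alone into 66 and 24. The same 2 scalings gave 175 and 74 or 215 and 46 for the C2C12 response and 292 and 265 or 261 and 296 for the MLg response. With the EO771 counts subtracted at each library's carry-over share, 11 members were higher and 9 lower in the difference, all 20 of them among the 73. Under that setting 71 of the 73 differences moved by less than 0.25 on the log2 scale and 72 kept an unadjusted p under 0.05, while calls over all genes tested fell from 343 to 39. Among the genes named below, the calls of Npy1r, Lpl, Gbp7, Gbp9, Ifi44, Stat2, Rassf4, Ebf3, Adam23, Osmr, Col28a1, Hmgcs1, Sprr1a, Ces1a, Abca8a, Ranbp3l, Jun, Mt1, Mt2, Rarres2 and Klf10 ended under it. The lower calls fell to 45 in the MLg response and to 15 in the C2C12 response. C2C12 libraries of the same R number deviated together, most in R3, and with the R number as a block 22 members were lower in the C2C12 response in place of 74. Among the genes named below, Gbp7 (2.22, adjusted p = 0.0577), Osmr (0.76, adjusted p = 0.0588), Hmgcs1 (1.03, adjusted p = 0.0765), Ebf3 and Adam23 lost their call in the difference under this block, and Rtp4 and Notch1 gained one.

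The interferon response list showed the clearest shared response, and it rose further in log2 terms in C2C12. Of its 31 members, 29 rose in C2C12 (3.98% of all genes tested were called higher there) and 30 rose in MLg (5.35%). The median log2 response was 2.72 in C2C12 and 2.28 in MLg, against medians of -0.03 and -0.04 over all genes tested. Of the 31, 7 had a called positive difference, against 0.778% of all genes tested called in that direction, and none had a negative one. Among them were Gbp3, Mx2, Ifi44, Gbp7, Oasl2 and Stat2. The median difference over the list was 0.60, against 0.01 over all genes tested. The list was chosen with the rise in each line already known, so that rise is not independent evidence.

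Many interferon-induced genes carry an interferon-stimulated response element in their promoters, and its core was searched as GAAA, any 2 bases and GAAA on both strands in RefSeq windows of 300 bases on GRCm38.p6, from 250 bases before to 50 after the start of the gene. The stretches below are shown because they are the 3 found among the 5 interferon members with a called difference and a window, with Ifit1 as a member that rose in both lines without one. The capitals mark the core, which reads TTTC, any 2 bases and TTTC on the strand of the gene in these 4 promoters.
Gbp3: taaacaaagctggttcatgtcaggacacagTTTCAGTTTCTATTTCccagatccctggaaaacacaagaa
Gbp7: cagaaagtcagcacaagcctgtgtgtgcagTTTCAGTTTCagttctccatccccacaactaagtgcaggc
Stat2: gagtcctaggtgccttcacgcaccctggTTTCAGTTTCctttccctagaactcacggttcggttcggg
Ifit1: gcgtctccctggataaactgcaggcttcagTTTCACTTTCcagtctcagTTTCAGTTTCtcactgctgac
The stretches lie at chr3:142559969-142560038 (Gbp3), chr3:142530253-142530322 (Gbp7), chr10:128270248-128270315 (Stat2) and chr19:34640755-34640824 (Ifit1), all on the plus strand.

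Of the 31 interferon members, 21 had a window, and 13 of these (61.9%) held the core, against 3.99% of the 27025 genes with a window. Of the 90 members that rose in both lines, 63 had a window and 34 of these (54.0%) held the core. The share was 3 of 34 (8.82%) among members with a positive difference and 1 of 18 (5.56%) among those with a negative one. An E-box, searched as CAGCTG, was in 16 of the 63 (25.4%) against 18.3% of all genes, and the hypoxia response element core ACGTG in 4 of the 63 (6.35%) against 21.8%. A match describes the letters in the window and is not a measured binding site.

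Gbp3 encodes a guanylate-binding protein, a GTPase of cell-autonomous immunity. Its level in C2C12 alone was 0.912 CPM in R2-1, 0.642 in R3-1, 0.572 in R3-2 and 0.449 in R5-1, and in C2C12 with EO771 it was 19.2 in R3-1, 17.2 in R5-1, 36.9 in R5-2 and 33.0 in R6-1. In MLg alone it was 9.01 CPM in R3-2, 10.1 in R5-2, 11.5 in R6-1 and 12.0 in R6-2, and in MLg with EO771 it was 97.9 in R5-1, 99.2 in R6-1, 105 in R6-2 and 61.3 in R7-1. Alone and co-cultured libraries did not overlap in either line, and every co-cultured MLg library lay above every co-cultured C2C12 library. The rise was 39.0-fold in C2C12 and 8.46-fold in MLg, a difference of 2.20 ± 0.36 (log2 ± SE, edgeR adjusted p = 0.00196). Thus the line with the larger fold was the line with the lower level both before and after contact with EO771.

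Mx2, a dynamin-like antiviral GTPase, had the same form. It was at 0.383, 0.352, 0.265 and 0.087 CPM in C2C12 alone (R2-1, R3-1, R3-2, R5-1) and at 25.6, 21.8, 37.1 and 26.3 in C2C12 with EO771 (R3-1, R5-1, R5-2, R6-1). In MLg it was at 2.90, 1.87, 2.02 and 2.28 CPM alone (R3-2, R5-2, R6-1, R6-2) and at 55.6, 41.5, 45.7 and 31.5 with EO771 (R5-1, R6-1, R6-2, R7-1). The groups of a line did not overlap, and the difference was 2.32 ± 0.40 (edgeR adjusted p = 0.00354).

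Ifi44, an interferon-induced cytoplasmic protein, went from 0.164 ± 0.097 to 41.1 ± 15.5 CPM (SD, n = 4) in C2C12 and from 1.46 ± 0.20 to 69.0 ± 16.6 CPM in MLg, a difference of 2.36 ± 0.47 (edgeR adjusted p = 0.0110). The call ended without the C2C12 libraries of R3 (2.46, adjusted p = 0.0638). Oasl2, a relative of the oligoadenylate synthetases, went from 4.79 ± 0.50 to 112 ± 20 CPM in C2C12 and from 23.1 ± 1.5 to 207 ± 43 CPM in MLg, a difference of 1.32 ± 0.22 (adjusted p = 0.00207). Gbp7 went from 0.648 ± 0.262 to 15.2 ± 7.7 CPM in C2C12 and from 9.95 ± 1.44 to 39.2 ± 9.1 CPM in MLg, a difference of 2.45 ± 0.49 (adjusted p = 0.0117). Genes of the guanylate-binding family have close copies, and reads could be split between them by the counting.

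Stat2, a transcription factor of the pathway, was also among the called members. It rose 3.60-fold in C2C12, from 50.2 ± 6.4 to 190 ± 37 CPM, and 1.83-fold in MLg, from 171 ± 24 to 318 ± 43 CPM (difference 0.97 ± 0.21, edgeR adjusted p = 0.0173). The call held in 13 of 16 fits that left out 1 library, and it ended without the C2C12 libraries of R3 (0.83, adjusted p = 0.125). Irf1 was called in neither line, and Trim30a, an interferon-induced tripartite motif protein, rose in MLg (log2 2.28, adjusted p = 0.00677) but was not called in C2C12 (1.69, adjusted p = 0.0661).

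**Figure D2:**
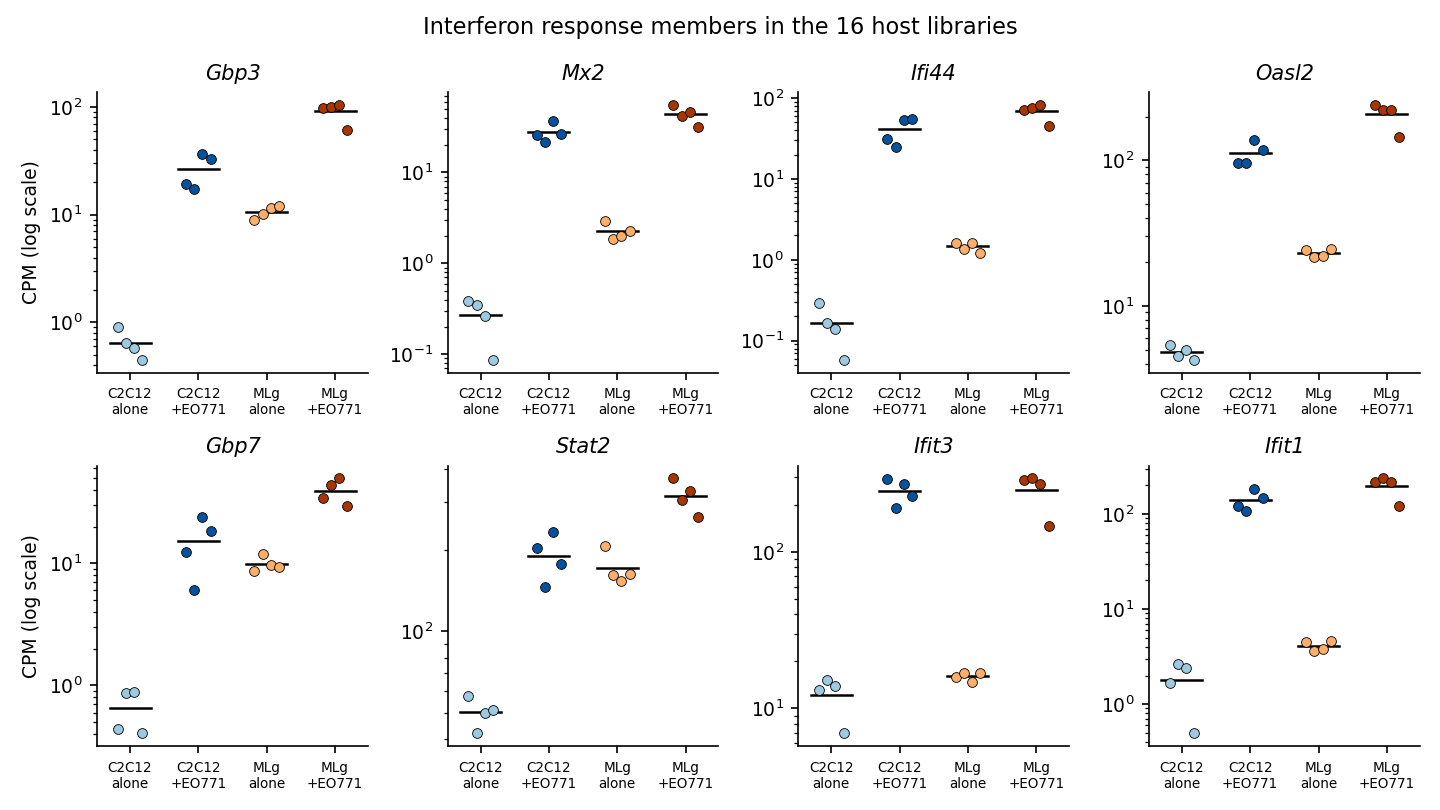
Levels of 8 interferon response members in the 16 host libraries, with CPM on a log axis on the y axis, the 4 groups on the x axis, 1 point for each library and a bar at the group mean. Alone and co-cultured libraries of a line are apart in every panel, the C2C12 libraries grown alone are the lowest except in the panel of Ifit3, where they overlap MLg alone, and the MLg libraries with EO771 are the highest or overlap the co-cultured C2C12 libraries.

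Further interferon-induced genes also rose in C2C12. Uba7, which encodes the enzyme that activates ISG15 for conjugation, rose in C2C12 from 8.12 ± 1.47 to 25.9 ± 5.0 CPM and was at 47.5 ± 3.1 and 61.6 ± 6.9 CPM in MLg without and with EO771, a difference of 1.23 ± 0.22 (edgeR adjusted p = 0.00481). Apol6, an apolipoprotein L gene, rose in C2C12 from 4.47 ± 1.13 to 12.6 ± 1.6 CPM and was at 33.5 ± 2.9 and 36.5 ± 3.6 CPM in MLg (difference 1.29 ± 0.24, adjusted p = 0.00732). Gbp9 rose in C2C12 from 0.904 ± 0.640 to 9.04 ± 5.42 CPM and was at 39.9 ± 5.7 and 77.2 ± 18.4 CPM in MLg (difference 2.33 ± 0.56, adjusted p = 0.0418). The Gbp9 call held in 3 of the 16 fits that left out 1 library.

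Not every interferon member had the larger log2 response in C2C12. Isg15, the ubiquitin-like modifier, rose from 7.94 ± 4.65 to 86.2 ± 28.9 CPM in C2C12 and from 4.07 ± 0.82 to 109 ± 39 CPM in MLg, so its difference was negative at -1.40 ± 0.59 (edgeR adjusted p = 0.308). Rtp4, a receptor-transporting protein induced by interferon, rose 5.50-fold in C2C12 and 10.0-fold in MLg (difference -0.86 ± 0.24, adjusted p = 0.0895). Unlike the 7 called members, both had their higher level alone in C2C12. Ifit1 and Ifit3, which encode tetratricopeptide proteins that bind viral RNA, rose almost alike: Ifit1 70.8-fold in C2C12 and 47.8-fold in MLg (difference 0.57 ± 0.48, adjusted p = 0.678) and Ifit3 18.8-fold and 15.4-fold (0.28 ± 0.35, adjusted p = 0.796). The differences of Usp18, which removes ISG15 (1.86 ± 0.60, adjusted p = 0.156), Oas2, an oligoadenylate synthetase (2.73 ± 0.90, adjusted p = 0.165), and Gbp5 (1.22 ± 0.65, adjusted p = 0.457) were large but carried large errors, and all 3 rose in both lines.

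The order of the lines depended on the scale. The log2 response was larger in C2C12 for 26 of the 31 interferon members, whereas the rise in CPM was larger in MLg for 29 of the 31. C2C12 alone was below MLg alone in 28 of the 31, and C2C12 with EO771 was below MLg with EO771 in 30. The EO771 cells of the same co-cultures could have added 0.106% to 1.21% of the co-cultured C2C12 level of the 7 called members and 0.227% to 1.15% of the MLg level, at the carry-over shares above. With the EO771 counts subtracted, 3 of the 7 calls (Gbp3, Mx2 and Oasl2) remained and the median difference over the list was 0.53.

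Hes1, a repressor that is the classical target of Notch, had the smallest adjusted p of all members with a negative difference. It was at 2.14, 3.76, 2.02 and 2.14 CPM in MLg alone (R3-2, R5-2, R6-1, R6-2) and at 20.1, 10.1, 9.44 and 10.9 in MLg with EO771 (R5-1, R6-1, R6-2, R7-1). In C2C12 it was at 61.1, 50.9, 49.7 and 60.3 CPM alone (R2-1, R3-1, R3-2, R5-1) and at 39.3, 38.3, 59.9 and 46.3 with EO771 (R3-1, R5-1, R5-2, R6-1). The MLg groups did not overlap, the C2C12 groups did, and every C2C12 library lay above every MLg library. Hes1 rose 4.91-fold in MLg (log2 2.30 ± 0.24) and was not called in C2C12 (-0.35 ± 0.22), a difference of -2.65 ± 0.33 (edgeR adjusted p = 0.000125). Its level was 1.47 CPM in EO771 alone and 0.669 CPM in EO771 with MLg, and EO771 RNA at the carry-over share accounts for 0.456% of the co-cultured MLg level.

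Hes1 was the only called gene of its list, with Notch1 close to the threshold. Of the 10 Notch members, 1 was called in the difference (1.06% of all genes tested were called lower), and the median difference over the list was -0.00. Notch1, a receptor, rose in MLg from 13.9 ± 2.9 to 25.9 ± 4.9 CPM (log2 0.88 ± 0.19, edgeR adjusted p = 0.00776) and was at 37.1 ± 4.1 and 34.4 ± 7.7 CPM in C2C12 (difference -1.07 ± 0.27, adjusted p = 0.0509). Notch1 was called in 14 of 27 alternatives, among them the R number as a block (-1.21, adjusted p = 0.0183).

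Some of the largest negative differences were rises in MLg from levels below those of C2C12. Hsd11b1, which regenerates active glucocorticoid from its inactive form, was at 1.81, 2.02, 2.79 and 2.01 CPM in MLg alone (R3-2, R5-2, R6-1, R6-2) and at 10.6, 14.1, 21.7 and 7.78 in MLg with EO771 (R5-1, R6-1, R6-2, R7-1). It was at 258, 129, 111 and 135 CPM in C2C12 alone (R2-1, R3-1, R3-2, R5-1) and at 246, 157, 138 and 231 in C2C12 with EO771 (R3-1, R5-1, R5-2, R6-1). The MLg groups were apart and the C2C12 groups overlapped. The rise in MLg was 6.23-fold and the difference was -2.42 ± 0.44 (edgeR adjusted p = 0.00491).

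Dio2, the deiodinase that makes active thyroid hormone, fell in C2C12 and rose in MLg. It was at 72.5, 23.9, 26.3 and 38.9 CPM in C2C12 alone (R2-1, R3-1, R3-2, R5-1) and at 21.2, 19.4, 23.9 and 22.0 with EO771 (R3-1, R5-1, R5-2, R6-1). In MLg it was at 0.875, 0.907, 1.05 and 0.972 CPM alone (R3-2, R5-2, R6-1, R6-2) and at 2.13, 2.40, 2.08 and 2.45 with EO771 (R5-1, R6-1, R6-2, R7-1). The MLg groups were apart, and the C2C12 groups touched at R3-1 alone and R5-2 co-cultured. The C2C12 response was -0.96 ± 0.23 (adjusted p = 0.0213), the MLg response 1.24 ± 0.26 (adjusted p = 0.00674) and the difference -2.20 ± 0.35 (edgeR adjusted p = 0.00181). EO771 RNA at the carry-over share would make up 10.4% of the co-cultured MLg level, and with it subtracted the difference was -2.13 (adjusted p = 0.0238).

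Aldh3a1, an aldehyde dehydrogenase, rose in MLg from 11.9 ± 2.3 to 27.2 ± 7.2 CPM and was at 124 ± 23 and 97.7 ± 16.8 CPM in C2C12 (difference -1.60 ± 0.26, edgeR adjusted p = 0.00207). Abca8a, a lipid transporter of the ABC family, rose in MLg from 0.467 ± 0.167 to 2.45 ± 0.72 CPM and was at 28.7 ± 17.3 and 25.6 ± 10.1 CPM in C2C12 (difference -2.59 ± 0.58, adjusted p = 0.0261). Ces1a, a carboxylesterase, fell in C2C12 from 48.2 ± 50.1 to 12.5 ± 6.1 CPM and was at 13.5 ± 2.9 and 27.4 ± 5.7 CPM in MLg (difference -3.00 ± 0.69, adjusted p = 0.0312). The Ces1a mean in C2C12 alone rested on R2-1 at 123 CPM, with the other 3 libraries at 18.5 to 25.7, and without R2-1 the difference was -2.03 (adjusted p = 0.0181). The calls of Ces1a and Abca8a held in 7 and 11 of the 16 fits that left out 1 library. Carboxylesterase genes lie in a family of close copies.

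**Figure D3:**
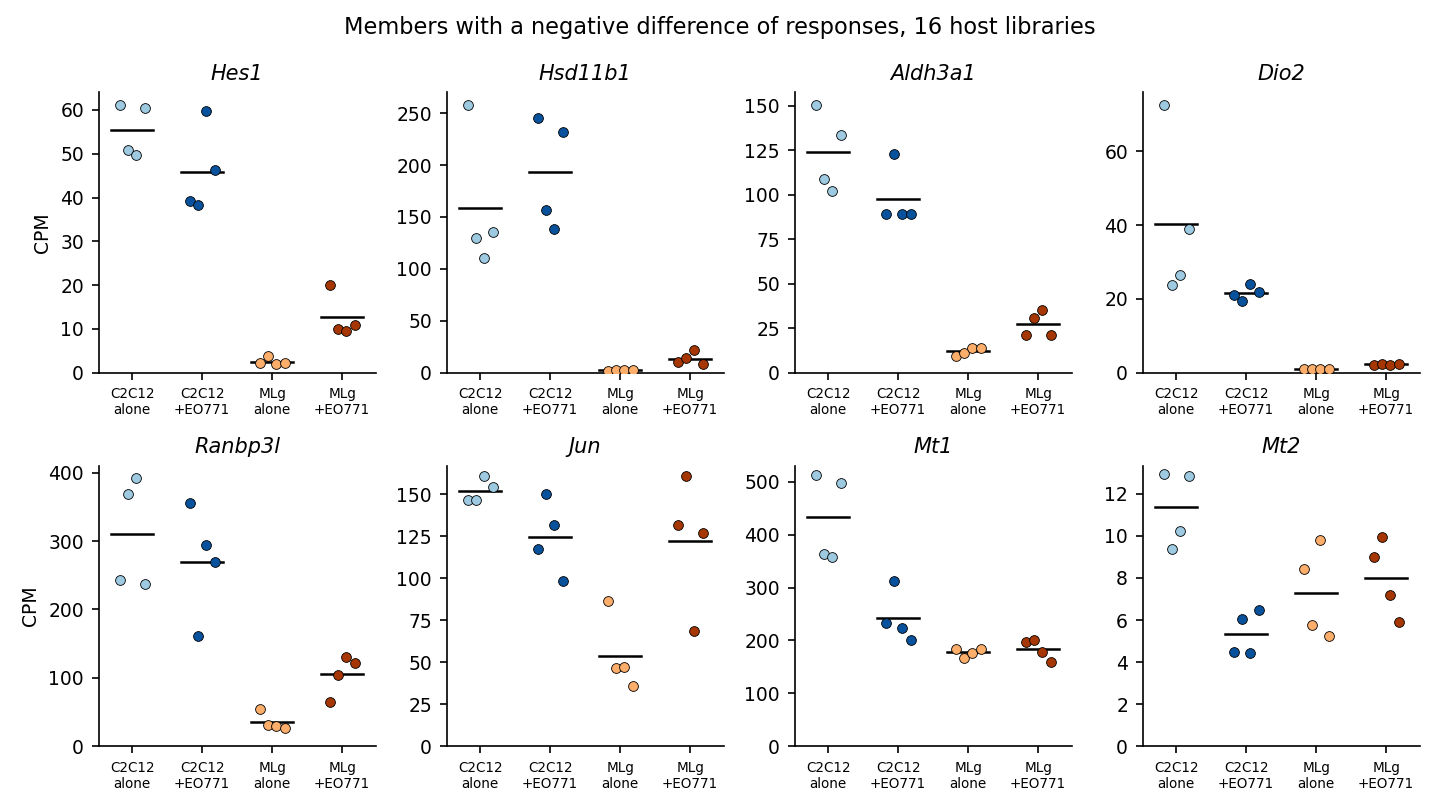
Levels of 8 members with a negative difference of responses in the 16 host libraries, with CPM on the y axis from 0, the 4 groups on the x axis, 1 point for each library and a bar at the group mean. In the panels of Hes1, Hsd11b1, Aldh3a1, Dio2 and Ranbp3l the MLg level rises from far below the C2C12 level, and in those of Mt1 and Mt2 the change is in C2C12.

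In the metallothioneins the change was in C2C12. Mt1, a metallothionein that binds zinc and copper, was at 513, 364, 358 and 498 CPM in C2C12 alone (R2-1, R3-1, R3-2, R5-1) and at 232, 312, 223 and 200 with EO771 (R3-1, R5-1, R5-2, R6-1). The 2 C2C12 groups did not overlap, whereas in MLg the groups overlapped within 160 to 201 CPM. Mt1 fell by 0.91 ± 0.14 on the log2 scale in C2C12 and the difference was -0.95 ± 0.19 (edgeR adjusted p = 0.0115). Mt2 fell from 11.4 ± 1.8 to 5.34 ± 1.05 CPM in C2C12 and was at 7.30 ± 2.17 and 8.02 ± 1.80 CPM in MLg (difference -1.29 ± 0.30, adjusted p = 0.0351). The Mt2 call held in 10 of the 16 fits that left out 1 library, and the Mt1 call in all 16. These 2 genes were the only called members of both the list of oxidative stress genes and metallothioneins (2 of 8) and the list of muscle atrophy and FOXO genes (2 of 26), against 1.06% of all genes tested called lower. The ubiquitin ligases Fbxo32 and Trim63 of the second list were not called in either line.

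Immediate early genes, which respond within minutes to stimuli and to cell handling, lay lower in the C2C12 response than in the MLg response. The list of dissociation and heat shock genes had 14 members, 12 of them with a difference below 0 and a median of -1.07, against 0.01 over all genes tested, and only Jun was called (1.06% of all genes tested were called lower). Jun, a subunit of the AP-1 factor, was at 86.3, 46.5, 47.2 and 35.6 CPM in MLg alone (R3-2, R5-2, R6-1, R6-2) and at 132, 161, 68.7 and 127 in MLg with EO771 (R5-1, R6-1, R6-2, R7-1). These groups overlapped at R3-2 alone and R6-2 co-cultured. In C2C12 Jun went from 152 ± 7 to 124 ± 22 CPM, and the difference was -1.53 ± 0.36 (edgeR adjusted p = 0.0356), a call that held in 6 of the 16 fits that left out 1 library. Fos (-1.88 ± 0.66, adjusted p = 0.203), Fosb (-3.01 ± 0.90, adjusted p = 0.121) and Egr1 (-1.57 ± 0.43, adjusted p = 0.0805) were not called, but Egr1 was called without the C2C12 libraries of R3 (-1.60, adjusted p = 0.0364). Fos was at 337 and 338 CPM in C2C12 alone R3-1 and R3-2 against 87.5 and 127 CPM in the other 2 libraries, and without the C2C12 libraries of R3 its difference was -0.96. The part of cell handling in these values was not tested.

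Further members with a negative difference rose in MLg. Ranbp3l, a nuclear export factor of SMAD proteins, rose from 35.0 ± 12.6 to 105 ± 29 CPM in MLg and was at 310 ± 82 and 270 ± 81 CPM in C2C12 (difference -1.86 ± 0.42, edgeR adjusted p = 0.0274). Rarres2, which encodes the chemoattractant chemerin, rose from 3.48 ± 0.45 to 7.44 ± 1.22 CPM in MLg and was at 11.0 ± 0.7 and 11.3 ± 2.2 CPM in C2C12 (difference -1.12 ± 0.24, adjusted p = 0.0173). Lrrc32, a surface docking protein for latent TGF-beta, rose from 8.02 ± 1.70 to 14.6 ± 2.9 CPM in MLg and was at 11.8 ± 1.2 and 8.30 ± 1.58 CPM in C2C12 (difference -1.44 ± 0.27, adjusted p = 0.00690). Klf10, an early TGF-beta target, rose from 38.3 ± 1.1 to 62.4 ± 13.7 CPM in MLg and was at 42.3 ± 5.7 and 39.4 ± 5.6 CPM in C2C12 (difference -0.88 ± 0.21, adjusted p = 0.0443). The calls of Klf10 and Ranbp3l held in 6 and 9 of the 16 fits that left out 1 library. H2-T-ps, a pseudogene of the MHC class I region, rose from 5.95 ± 0.35 to 12.6 ± 3.1 CPM in MLg and was at most at 0.0912 CPM in any C2C12 library, so its C2C12 response rests on very few reads, and it has close copies that can share reads.

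Sprr1a, a cornified envelope protein of epithelia, had the most negative difference (-4.36 ± 1.05, edgeR adjusted p = 0.0409), and this value moved with the carry-over. It rose in MLg from 0.158 ± 0.070 to 2.34 ± 0.85 CPM, with 3.61 CPM in R5-1, the library with the highest carry-over, and 1.79 to 2.05 CPM in the other 3. EO771 RNA at the carry-over share would make up 80.0% of the co-cultured MLg level. With it subtracted the difference was -2.22 (adjusted p = 0.592). The Sprr1a call held in 3 of the 16 fits that left out 1 library.

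Among members with a positive difference off the interferon list, both rises in C2C12 and falls in MLg occurred. Of these 40 members, 19 had a called rise in C2C12 and 17 a called fall in MLg, 1 of them both, and 5 had neither. The 19 include Uba7, Apol6 and Gbp9, which are off the list but were described above as interferon-induced. Npy1r, a receptor of neuropeptide Y, was at 3.76, 2.75, 2.32 and 9.48 CPM in C2C12 alone (R2-1, R3-1, R3-2, R5-1) and at 6.02, 26.0, 28.8 and 50.6 with EO771 (R3-1, R5-1, R5-2, R6-1). In MLg it was at 104, 145, 152 and 146 CPM alone (R3-2, R5-2, R6-1, R6-2) and at 68.9, 95.2, 84.2 and 82.2 with EO771 (R5-1, R6-1, R6-2, R7-1). The C2C12 groups overlapped because R3-1 co-cultured lay below R5-1 alone, and the MLg groups were apart. The C2C12 response was 2.54 ± 0.47 (adjusted p = 0.00247), the MLg response -0.74 ± 0.43 (adjusted p = 0.358) and the difference 3.28 ± 0.64 (edgeR adjusted p = 0.00913).

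Lpl, the lipase that releases fatty acids from lipoproteins, rose in C2C12 from 34.5 ± 25.1 to 125 ± 63 CPM and was at 42.6 ± 3.9 and 26.6 ± 5.7 CPM in MLg (difference 2.48 ± 0.54, edgeR adjusted p = 0.0204). Its C2C12 groups overlapped, with R5-1 alone at 71.9 CPM and R3-1 co-cultured at 48.1 CPM. The Lpl call held in 11 of the 16 fits that left out 1 library. Gdpd2, a glycerophosphodiester phosphodiesterase, rose in C2C12 from 2.42 ± 0.69 to 5.20 ± 0.52 CPM and was at 64.4 ± 20.0 and 44.6 ± 5.0 CPM in MLg (difference 1.59 ± 0.28, adjusted p = 0.00388). Aldh1l1, a folate enzyme, rose in C2C12 from 3.70 ± 0.50 to 7.25 ± 1.22 CPM and was at 12.0 ± 0.8 and 8.86 ± 1.70 CPM in MLg (difference 1.33 ± 0.23, adjusted p = 0.00383). Col28a1, a collagen of the von Willebrand domain class, rose in C2C12 from 6.59 ± 1.60 to 16.6 ± 5.8 CPM and was at 16.3 ± 1.2 and 13.5 ± 2.8 CPM in MLg (difference 1.54 ± 0.31, adjusted p = 0.0110). In none of these 4 genes was the MLg response called, although the MLg groups of Lpl and Aldh1l1 did not overlap and were lower with EO771.

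Csgalnact1, which starts chondroitin sulfate chains, rose in C2C12 and fell in MLg. Its level was 54.9, 57.1, 57.7 and 56.9 CPM in C2C12 alone (R2-1, R3-1, R3-2, R5-1) and 98.1, 85.1, 87.0 and 115 in C2C12 with EO771 (R3-1, R5-1, R5-2, R6-1). In MLg it was 25.7, 22.5, 19.1 and 19.8 CPM alone (R3-2, R5-2, R6-1, R6-2) and 14.5, 15.0, 16.5 and 16.9 with EO771 (R5-1, R6-1, R6-2, R7-1). Neither line's groups overlapped. The responses were 0.68 ± 0.12 and -0.49 ± 0.12, and the difference of 1.17 ± 0.17 (edgeR adjusted p = 0.000589) was the smallest adjusted p of the positive differences. Dpysl2, a collapsin response mediator that binds tubulin, was called through a fall in MLg, from 120 ± 15 to 72.3 ± 4.1 CPM, with 82.8 ± 1.1 and 95.0 ± 8.3 CPM in C2C12 (difference 0.86 ± 0.14, adjusted p = 0.00163).

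Osmr, the receptor chain for oncostatin M, rose in C2C12 from 167 ± 13 to 263 ± 47 CPM and was at 385 ± 39 and 338 ± 30 CPM in MLg (difference 0.78 ± 0.17, edgeR adjusted p = 0.0218). It was the only one of the 22 members of the JAK-STAT3 and acute phase list called in the difference. Of all genes tested, 0.778% were called higher there. The Osmr call held in 8 of the 16 fits that left out 1 library. Of the 22, 5 were called higher in the C2C12 response (3.98% of all genes tested) and 1 in the MLg response (5.35%). Rassf4, a Ras association domain protein, rose in C2C12 from 1.70 ± 0.55 to 5.27 ± 2.23 CPM and was at 0.637 ± 0.210 and 0.342 ± 0.167 CPM in MLg (difference 2.44 ± 0.55, adjusted p = 0.0278). The Rassf4 call held in 9 of the 16 fits that left out 1 library. Adam23, a membrane protein of the ADAM family, was called at 1.67 ± 0.41 (adjusted p = 0.0441) and Ebf3, a transcription factor, at 2.06 ± 0.50 (adjusted p = 0.0438), each in 2 of the 16 fits that left out 1 library. Adam23 was low in C2C12, at 0.356 ± 0.183 CPM alone and 0.915 ± 0.346 with EO771. In MLg it was at 31.95 ± 6.43 and 24.5 ± 4.3 CPM, and its groups overlapped in both lines. Ebf3 was at 24.2 to 32.5 CPM in every C2C12 library and at or below 0.373 CPM in every MLg library, so its difference rests on very few MLg reads.

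**Figure D4:**
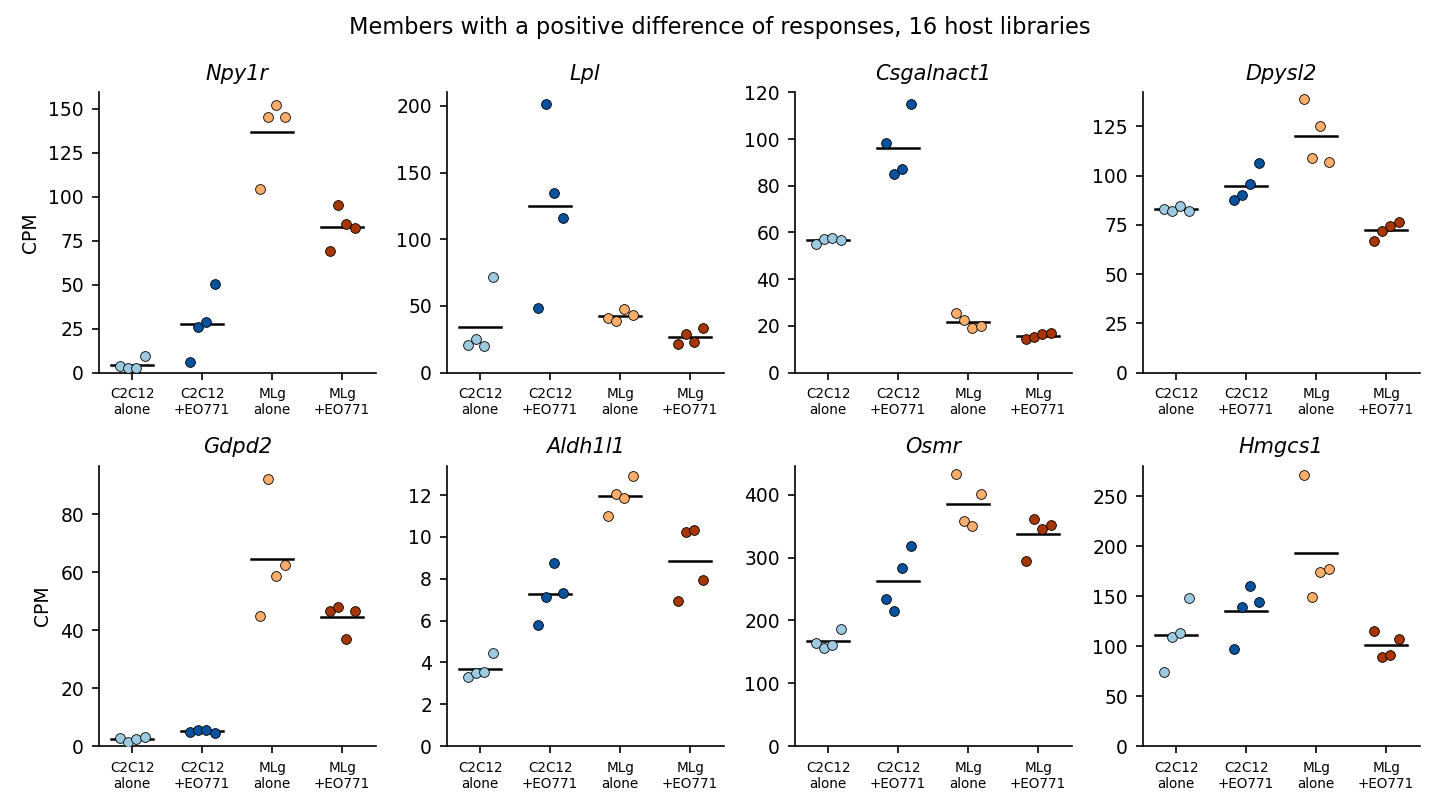
Levels of 8 members with a positive difference of responses in the 16 host libraries, with CPM on the y axis from 0, the 4 groups on the x axis, 1 point for each library and a bar at the group mean. The rise in C2C12 was called for Npy1r, Lpl, Csgalnact1, Gdpd2, Aldh1l1 and Osmr, and the fall in MLg for Csgalnact1, Dpysl2 and Hmgcs1. The MLg level also lies lower with EO771, without overlap but not called, in the panels of Npy1r, Lpl and Aldh1l1. In that of Dpysl2 the C2C12 level lies higher in the same way.

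Cholesterol synthesis genes lay lower in MLg with EO771 and not in C2C12. Of the 22 members, 8 fell in MLg (1.82% of all genes tested were called lower there) with a median response of -0.67 against -0.04 over all genes tested, and none was called in C2C12, with a median of 0.17. The difference was above 0 in 22 of 22, with a median of 0.84, and 1 was called (0.778% of all genes tested were called higher). That gene was Hmgcs1, which makes the first committed intermediate of the pathway, at 271, 149, 175 and 177 CPM in MLg alone (R3-2, R5-2, R6-1, R6-2) and 116, 89.6, 91.5 and 108 in MLg with EO771 (R5-1, R6-1, R6-2, R7-1). The MLg groups were apart, with R3-2 well above the rest of the libraries grown alone, and C2C12 was at 111 ± 30 and 135 ± 27 CPM. The difference was 1.16 ± 0.29 (edgeR adjusted p = 0.0479). Fdps, the farnesyl diphosphate synthase, fell in MLg (-1.12, adjusted p = 0.0290) and had a difference of 1.70 ± 0.42 (adjusted p = 0.0507).

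The count of cholesterol genes that fell in MLg depended on single libraries. It was 1 without MLg alone R3-2, in which Fdps stood at 52.0 CPM against 21.1 to 22.5 in the other 3, and the median MLg response was then -0.40 and the median difference 0.58, still above 0 in 22 of 22. It was also 1 without MLg with EO771 R5-1, R6-1 or R6-2 and with the EO771 counts subtracted. Hmgcs1 itself was called in the difference in 2 of the 16 fits that left out 1 library.

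**Figure D5:**
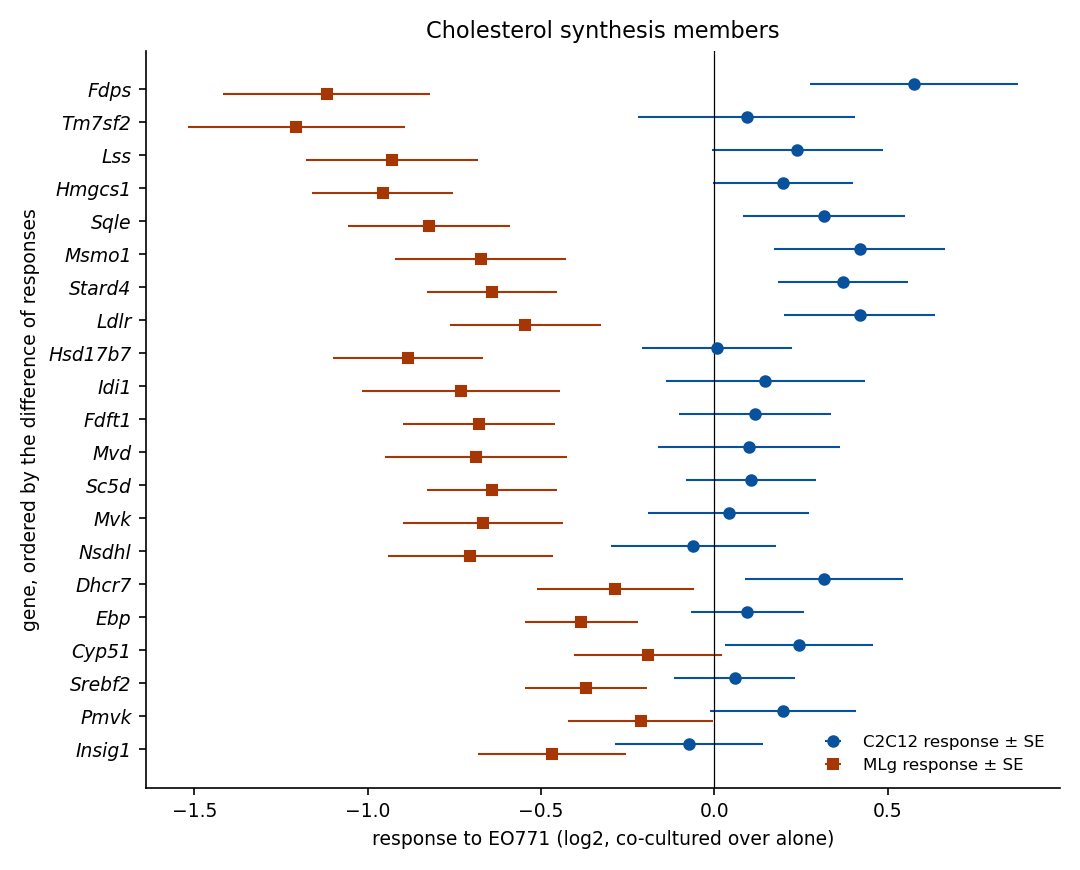
Responses of 21 of the 22 cholesterol synthesis members, with the log2 response ± SE on the x axis and the genes on the y axis ordered by the difference of responses. The MLg response (brown squares) lies below 0 for all 21 genes and below the C2C12 response (blue circles) for each gene, although 1 gene was called in the difference.

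In all, 90 members rose in both lines, 29 of them on the interferon list, and 8 of the 90 also had a called difference (0.471% of all members did). The 90 are 54.9% of those that rose in C2C12, against 1.52% of all members called higher in MLg. They are 38.1% of those that rose in MLg, against 1.06% of all members called higher in C2C12. Fewer members, 9, fell in both lines. They are 12.2% of those that fell in C2C12, against 2.17% of all members called lower in MLg. They are 2.67% of those that fell in MLg, against 0.477% of all members called lower in C2C12. Bhlhe41, a repressor of the circadian clock, fell by 0.53 ± 0.10 on the log2 scale in C2C12 (139 ± 15 to 102 ± 10 CPM) and by 0.54 ± 0.11 in MLg (18.1 ± 2.0 to 12.6 ± 1.3 CPM). Plcb4, a phospholipase C (-0.52 and -0.46), Zfp964, a zinc finger gene (-0.52 and -0.50), Irak2, a kinase of interleukin and Toll-like receptor signalling (-0.44 and -0.43), and Appl2, an endosomal adaptor (-0.41 and -0.49), also fell (C2C12 and MLg responses). When the R number entered as a block, the C2C12 falls of Bhlhe41 (-0.44, adjusted p = 0.0756), Zfp964, Irak2 and Appl2 were not called, with adjusted p of 0.0756 to 0.271. With the EO771 counts subtracted, Plcb4, Zfp964, Irak2 and Appl2 were called in neither line, and Zfp964 was called in 2 (C2C12) and 4 (MLg) of the 16 fits that left out 1 library.

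Most lists held no called difference. In all, 21 of the 29 lists had no member called in the difference. Among them were hypoxia response (27 members, median difference 0.10), glycolysis (12, -0.10), oxidative phosphorylation (26, -0.06), extracellular matrix (40, -0.18), chemokines (13, -0.30) and sarcomere and myotube genes (40, 0.15). Hypoxia response genes were also called in neither line's own response. The chemokine list had 5 of 13 members higher in MLg (5.35% of all genes tested were called higher there) and none called in C2C12, and the 5 became 2 without MLg alone R6-2 and 3 without MLg with EO771 R5-1. The sarcomere genes had no call in the C2C12 response over all 4 libraries a group (median -0.28), but without the C2C12 libraries of R3 the median was -0.83 and 8 of 40 were called lower (0.566% of all genes tested in that fit), and 1 was called lower in the difference (1.26%). The median C2C12 response had no steady sign: it was -0.63 without C2C12 alone R3-1 and 0.34 without C2C12 alone R5-1. The rule left few proliferation genes to compare, since 3 of 34 S phase genes and 0 of 30 G2/M genes were members.

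The rule is a threshold, and called genes close to it differ little in how far EO771 exceeds the hosts. Zfp692 (3.83 times the lower host level) and 3300005D01Rik (3.94 times) lay just inside, and Cptp (4.77 times) and Slc29a1 (5.11 times) just outside.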

How the data were processed

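Stranded mRNA libraries of 3 mouse lines, grown alone or as EO771 with a host line, were sequenced, with 7 groups of 4 libraries. The authors deposited whole-number read counts per gene for each library. Tools listed per the submitters' processing notes were STAR 2.7.10a, fastp, Subread 2.0.1 with featureCounts, and DESeq2. No source used here gives the genome build, annotation or strand setting of the counting. All 55536 gene identifiers matched GENCODE M21, which gave the symbols.

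Genes with low counts were removed with filterByExpr (minimum count 10, minimum total 15), and the 16 host libraries were fitted together with TMM factors and the quasi-likelihood test of edgeR 4.0.16 in R 4.3.3, with Benjamini-Hochberg adjustment over all 18647 genes tested and a threshold of 0.05. The C2C12 and MLg responses and their difference were contrasts of this fit. The edgeR test gives no SE, so each SE was derived as the absolute log2 value over the square root of its F statistic. Alternatives used limma 3.58.1, DESeq2 1.42.0, other scalings, other library sets and EO771 counts subtracted. In a simulation on the same 18647 genes, the difference test recovered 46% of 100 genes changed by a log2 of 1 and 90% of 100 changed by 2, with 7 false calls among 143. The changed genes were picked among those with higher mean counts and were changed only in C2C12 with EO771. Counts were drawn independently for each library, with no carry-over and no shared deviation between libraries. These rates therefore need not hold for the real libraries.

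In C2C12, libraries with the same R number deviated together in all 4 pairs (r = 0.23 to 0.50), most in the R3 pairs (0.44 and 0.50). R5-1 alone and R6-1 co-cultured, with unlike numbers, also reached 0.23. The values thus set R3 apart but do not show a pairing by R number in general, and the labels' text gives none. Promoters are RefSeq windows on GRCm38.p6. A few genes of the lists are counted but not reported by name here.

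The members and the gene lists were chosen with earlier results of these data known. Genes were named by rule at a mean of at least 5 CPM in 1 host group: the 10 largest called differences in each direction, up to 3 called members of each list in each direction, genes called in opposite directions in both lines, and the 5 largest shared responses in each direction. Genes named outside this rule, after their values were seen, were Stat2, Uba7, Isg15, Rtp4, Apol6, Irf1, Trim30a, Rarres2, Dpysl2, Col28a1, Gdpd2, Aldh1l1, Lrrc32, Klf10, Fdps, Notch1, Fos, Fosb, Egr1, Fbxo32 and Trim63.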

Additional observations from a re-analysis of the deposited data

Results flagged for a closer look

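The 2 lines' responses to EO771 differed, by the test of the difference itself (edgeR, adjusted p under 0.05), in 36 of the 55 genes tabulated here. On the log2 scale the difference among interferon-induced genes was 2.20 for Gbp3, 2.32 for Mx2, 2.36 for Ifi44, 1.32 for Oasl2, 2.45 for Gbp7, 2.33 for Gbp9, 0.97 for Stat2, 1.23 for Uba7 and 1.29 for Apol6. Other positive differences were 3.28 for Npy1r, 2.48 for Lpl, 2.44 for Rassf4, 2.06 for Ebf3, 1.67 for Adam23, 0.78 for Osmr, 1.17 for Csgalnact1, 1.16 for Hmgcs1, 0.86 for Dpysl2, 1.59 for Gdpd2, 1.33 for Aldh1l1 and 1.54 for Col28a1. Negative differences were -2.65 for Hes1, -2.42 for Hsd11b1, -1.60 for Aldh3a1, -2.20 for Dio2, -1.86 for Ranbp3l, -2.59 for Abca8a, -3.00 for Ces1a, -1.53 for Jun, -0.95 for Mt1, -1.29 for Mt2, -1.12 for Rarres2, -4.36 for Sprr1a, -2.95 for H2-T-ps, -1.44 for Lrrc32 and -0.88 for Klf10. Of these 36, 12 were called under every alternative run and 14 were called in fewer than 12 of the 16 fits that left out 1 library. Among the 14 were Lpl and Abca8a (11 each), Mt2 (10), Rassf4 and Ranbp3l (9 each), Osmr (8) and Ces1a (7). The rest were Jun and Klf10 (6 each), Gbp9 and Sprr1a (3 each), and Ebf3, Adam23 and Hmgcs1 (2 each).

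In 20 of 220 groups of 4 libraries, 1 library lay far from the other 3 for its gene. Chance alone sets some such groups apart, and the 220 groups reuse the same 16 libraries, so they are not independent of each other. In C2C12 alone R2-1, Hsd11b1 was at 258 CPM (others 111 to 135), Ces1a at 123 (18.5 to 25.7), Bhlhe41 at 160 (130 to 134), Irak2 at 42.7 (33.6 to 34.7) and Gbp5 at 0 (0.0829 to 0.0870). In C2C12 alone R5-1, Lpl was at 71.9 CPM (19.9 to 25.4) and Fdps at 9.61 (4.41 to 4.67). In MLg alone R3-2, Fdps was at 52.0 CPM (21.1 to 22.5), Ranbp3l at 53.8 (26.4 to 30.3) and Npy1r at 104 (145 to 152). Hes1 was at 3.76 CPM in MLg alone R5-2 and at 20.1 CPM in MLg with EO771 R5-1 (9.44 to 10.9), where Sprr1a was at 3.61 (1.79 to 2.05). Gbp3 at 61.3 CPM (97.9 to 105) and Lrrc32 at 10.3 (15.5 to 16.5) were low in MLg with EO771 R7-1. Lrrc32 was at 10.7 CPM in C2C12 with EO771 R3-1 (7.40 to 7.59), Aldh3a1 at 123 in C2C12 with EO771 R5-1 (89.1 to 89.3), Rassf4 at 0.950 in MLg alone R6-1 (0.514 to 0.567), Gdpd2 at 37.1 in MLg with EO771 R6-2 (46.5 to 48.1) and Zfp964 at 6.57 in MLg with EO771 R6-1 (5.92 to 6.03).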

How the results depend on the processing

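The signs of all 73 called differences were kept under every alternative fit, but the counts moved and the cause was not tested. For the difference of responses, members higher and lower were 172 and 132 with DESeq2, 262 and 250 with limma voom, 11 and 9 with EO771 counts subtracted, 72 and 42 with all 28 libraries, 58 and 63 without the C2C12 libraries of R3, and 30 and 16 when EO771 could at most equal each host. For the C2C12 response they were 248 and 182 with DESeq2, 334 and 518 with voom and 108 and 14 from the C2C12 libraries only, and the lower count was 46 with library totals and 15 after subtraction. For the MLg response they were 463 and 525 with DESeq2, 701 and 1539 with voom and 688 and 786 from the MLg libraries only, the higher count was 378 without the C2C12 libraries of R3, and the lower count was 45 after subtraction. Interferon members with a called difference were 11 with DESeq2 and 3 after subtraction. Cholesterol members that fell in MLg were 5 with RLE or library totals, 16 with voom, 1 after subtraction and 17 from the MLg libraries only. The difference of Trim30a, -0.58, turned to 0.18 without the C2C12 libraries of R3, with no call in either fit.

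With the R number as a replicate block, 53 members were higher and 56 lower in the difference, 50 of them shared with the 73, and 147 were higher and 22 lower in the C2C12 response. In MLg the R numbers are only shared numbers (5 pairs, r = -0.11 to 0.06). With the block within each line the counts were 64 and 66 for the difference, 33 lower for C2C12, 452 and 645 for MLg and 13 for cholesterol, an alternative chosen after seeing the data.

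Leaving out 1 library gave 21 (C2C12 alone R3-1 or MLg with EO771 R6-2) to 81 (C2C12 alone R5-1) members higher and 12 (MLg alone R6-2) to 100 (C2C12 with EO771 R3-1) lower in the difference. The higher count was also 23 to 30 without C2C12 alone R2-1, MLg alone R3-2, R5-2, R6-1 or R6-2, or MLg with EO771 R5-1 or R6-1. The lower count was 64 without C2C12 alone R5-1, 92 without C2C12 with EO771 R5-1, 17 without its R5-2 or R6-1 or MLg alone R6-1, and 16 without MLg with EO771 R6-1. The ranges were 127 to 242 and 29 (C2C12 with EO771 R6-1) to 372 (R3-1) for the C2C12 response, 161 to 423 and 134 to 390 for the MLg response, 5 to 9 for interferon differences, 29 to 30 and 30 to 30 for interferon rises in C2C12 and MLg, and 1 to 8 for cholesterol.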
